A study of Homo sapiens with 3 samples.

Results

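The G1-phase cells of the sensitive and the resistant monoculture were compared across all genes. CAMA-1 is an estrogen receptor-positive breast cancer cell line, grown here as spheroids in medium with ribociclib, an inhibitor of the cyclin-dependent kinases CDK4 and CDK6. The resistant lineage came from the same line after months of culture in the drug, and its parental counterpart without that exposure is the sensitive lineage. Sensitive cells carried the fluorescent protein mVenus and resistant cells mCherry, both added by lentivirus, so that the transgene is a label of lineage. Each spheroid was plated with 2000 cells, as 100% sensitive cells, 100% resistant cells or 50% of each, with 1 µM ribociclib in the medium over 11 days. Their single-cell RNA was then measured in 3 libraries, 1 per composition. No untreated library was analysed here, so every cell described had been under the drug, and each lineage is 1 derived culture of 1 cell line. The members were the cells that the deposited annotation assigned to G1 and to a monoculture, which gave 2963 sensitive and 3781 resistant cells, 6744 of the 19237 annotated cells in the series. The G1 cells of both lineages in the coculture, 1138 sensitive and 3125 resistant, were set beside them.

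G1 is the interval in which a cell either commits to replicating its DNA or stops. Cyclin D with CDK4 or CDK6 phosphorylates the retinoblastoma protein RB1, which frees the E2F factors to switch on the genes of replication and mitosis, and CDK4/6 inhibitors hold cells before that step. In estrogen receptor-positive cells the receptor drives cyclin D1, encoded by CCND1. It also drives other genes, such as TFF1, which gives a secreted peptide, and PGR, the progesterone receptor gene. A comparison within G1 asks how the lineages differ when neither is in S, G2 or mitosis by its transcripts.

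The share of cells in G1 was 89.0% of 3329 annotated cells in the sensitive monoculture and 50.0% of 7557 in the resistant monoculture. In the coculture it was 55.3% of 2059 sensitive and 49.7% of 6292 resistant cells. The deposited phase comes from scores of S and G2M transcripts, and all these G1 cells had both scores below 0. Inside G1 the scores still differed, with a median G2M score of -0.165 in sensitive and -0.094 in resistant monoculture cells, and a median S score of -0.094 and -0.066. The counts summed to 82727493 unique molecules (UMIs, tags that count each captured RNA once) in the sensitive and 128692897 in the resistant G1 cells. The median cell held 26713 UMIs and 4538 genes in the sensitive and 33368 UMIs and 4747 genes in the resistant monoculture. Mitochondrial transcripts made up a median 21.2% and 16.7% of a cell's UMIs. mVenus was found in 67.2% of sensitive and mCherry in 67.7% of resistant monoculture cells, and the other lineage's transgene had 0 UMIs in both, a limit of 0.101% and 0.0793% on the cells with such a UMI. In the coculture all assigned G1 cells held their own transgene, a share set by the assignment, whereas monoculture cells were assigned with or without one. The coculture cells were thus selected by another rule than the monoculture cells. The monoculture libraries shared 34 cell barcodes, 7 of them annotated and 2 in G1.

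Both populations had the luminal epithelial character of the line. All 12 luminal markers were measured, with a summed level of 12196 CPM (counts scaled to a fixed total of UMIs per population) in sensitive and 16507 CPM in resistant cells. The luminal keratin KRT18 stood at 2687 and 3848 CPM, and the adhesion molecule EPCAM at 251 and 333 CPM, while FOXA1, a luminal transcription factor, had 116 and 80.5 CPM. Of the 12 markers 7 were higher and 5 lower in resistant cells, with a median ratio of 0.07, and TFF1 alone went from 1871 to 4626 CPM. The 4 endothelial markers found, of 5 listed, summed to 0.314 and 0.140 CPM, and the 7 leukocyte markers to 0.991 and 1.55 CPM. The 7 basal markers summed to 38.3 CPM in sensitive and 2.71 CPM in resistant cells and the 7 fibroblast markers to 36.6 and 2.84 CPM, and in the sensitive cells each sum came mostly from 1 gene. There the myosin kinase gene MYLK had 31.9 of the 38.3 CPM, and the collagen gene COL3A1 33.5 of the 36.6 CPM, while 3 fibroblast markers were at 0 in both populations. The part of other cell types in the results below was not tested beyond these values.

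Levels below are CPM of the UMIs summed over a population's G1 cells, and ratios are log2 of resistant over sensitive with 1 CPM added to each. With 1 library per condition there is no replicate error and no test, and a difference between lineages cannot be told apart from a difference between spheroid pools or libraries. Intervals are exact 95% Poisson or binomial limits and cover counting error only. Of 12478 genes with at least 50 UMIs, 216 (1.73%) were at least 2-fold higher and 534 (4.28%) at least 2-fold lower in resistant cells. Differences of 4-fold or more were reached by 25 genes that were higher and 82 that were lower. The median ratio over all genes was -0.107, with 5% of genes below -0.93 and 5% above 0.63, so that a list median has to be read against -0.107 rather than 0. Scaling by trimmed means (TMM), which moves that median to -0.0045, gave 267 higher and 426 lower genes, a split of 38.5% higher against 28.8% in the main analysis. Of the 2231 genes that averaged 50 CPM or more, 22 were 2-fold higher and 63 lower, with a median of -0.02.

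**Figure D1:**
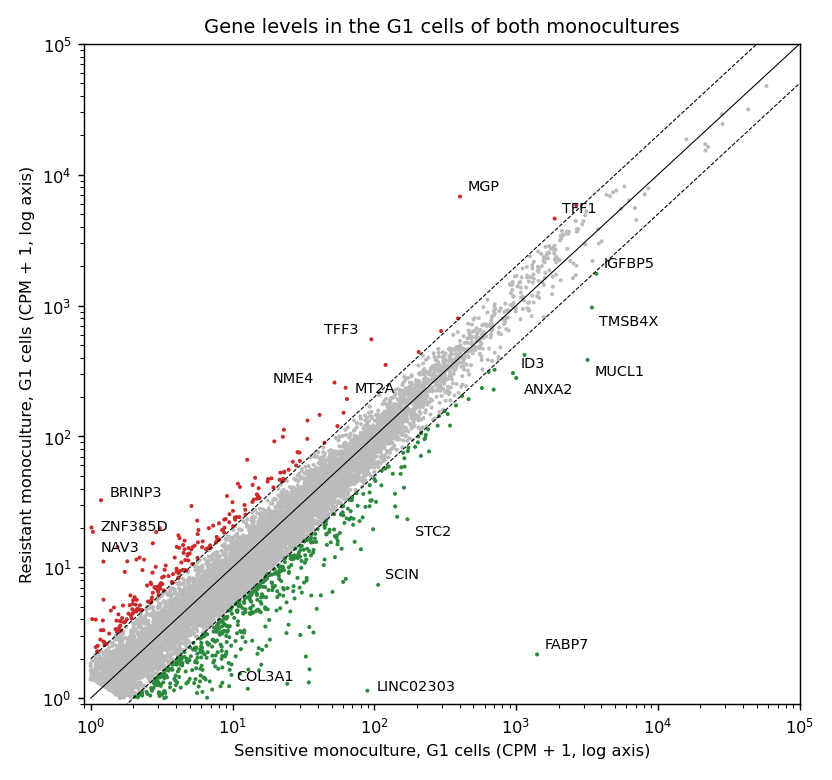
Level of each of 12478 genes in the G1 cells of the sensitive (x axis) and the resistant monoculture (y axis), as CPM + 1 on log axes. The solid line marks equal levels, the dashed lines 2-fold, and coloured points lie at or past 2-fold. FABP7 is the farthest point below the diagonal, at 1406 against 1.16 CPM, and MGP stands above it at 401 against 6825 CPM.

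FABP7, a fatty acid-binding protein of the brain and mammary gland, had the lowest log2 ratio with 1 CPM added. Its level was 1406 CPM (95% interval 1398 to 1414) in sensitive and 1.16 CPM (0.979 to 1.36) in resistant monoculture cells, a log2 ratio of -9.35. In the coculture it was 313 CPM in sensitive and 15.7 CPM in resistant cells. After each cell was thinned to 5000 UMIs, 53.2% of sensitive and 0.370% of resistant monoculture cells held a FABP7 molecule, and without thinning 76.9% and 1.85%. In the coculture 17.4% of resistant cells held one without thinning. RNA free in the droplets can give a UMI to a cell that does not express the gene, and its part in such shares was not tested. Clusters were compared where the deposited annotation put at least 50 G1 cells of a population in them, which gave 4 per monoculture and left smaller ones out. Over these FABP7 ranged from 455 to 1772 CPM in sensitive and from 0.658 to 0.970 CPM in resistant cells. FABP7 lies on chromosome 6 at 123100861 to 123105219 (GRCh37, plus strand).

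SCIN, which encodes the actin-severing protein scinderin, stood at 106 CPM in sensitive and 6.34 CPM in resistant cells, and at 78.1 and 9.34 CPM in the coculture. Its sensitive clusters lay between 92.3 and 107 CPM, while the resistant cluster numbered 6, with 8.01% of those G1 cells, had 41.4 CPM against 1.94 to 3.51 CPM in the others. MUCL1, a small mucin-like protein secreted by mammary epithelium, had 3199 and 384 CPM, with 1947 and 735 CPM in the coculture. SCGB2A2, the secretoglobin mammaglobin, had 33.8 and 2.49 CPM, and nearly all of it came from sensitive cluster 12, which holds 5.23% of the G1 cells and had 703 CPM against 0.849 to 1.11 CPM in the other clusters. Without thinning, only 3.51% of sensitive cells held any SCGB2A2 molecule. The difference in this gene was therefore that of a small group of cells, unlike SCIN, which was found in 83.2% of sensitive cells without thinning.

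Further genes were among the 15 lowest ratios at 50 CPM or more. STC2, a secreted glycoprotein induced by estrogen and by stress, had 170 and 22.3 CPM. EDN1, the precursor of the vasoconstrictor endothelin 1, had 97.2 and 18.5 CPM, and CPE, the carboxypeptidase that trims prohormones, 139 and 28.2 CPM. The carboxypeptidase inhibitor LXN had 144 and 23.3 CPM. TMSB4X, which binds actin monomers, had 3430 and 966 CPM, and the membrane-binding annexin ANXA2 1002 and 279 CPM. Each of these 6 genes was also lower in resistant than in sensitive coculture cells, with ratios from -1.50 (EDN1) to -0.52 (STC2). Of the remaining 6 genes of the 15, PLK2, LURAP1L, ATP1B1 and EFHD2 were lower there too, whereas ANKRD37 and S100A1 were higher. LINC02303, a long non-coding RNA named after its values were seen, had 88.4 and 0.140 CPM and a log2 ratio of -6.29, and the alpha-tubulin gene TUBA1A, likewise, 33.9 and 0.661 CPM with -4.39. The chloride channel accessory gene CLCA2 had 465 UMIs in sensitive and 1 in resistant cells, a 723-fold difference in CPM with a counting interval of 129 to 28600.

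MGP, the matrix Gla protein that keeps soft tissue from calcifying, had the largest ratio of the abundant genes. Its level was 401 CPM (397 to 406) in sensitive and 6825 CPM (6810 to 6839) in resistant cells, a log2 ratio of 4.08, with 1070 and 6221 CPM in the coculture. With cells thinned, 31.2% of sensitive and 98.4% of resistant monoculture cells held an MGP molecule, against 81.3% and 97.0% in the coculture, and without thinning 55.7% of sensitive cells in the monoculture and 100.0% in the coculture. The resistant population was not uniform, since its cluster 6 had 1342 CPM and the other clusters 6467 to 7800 CPM, but cluster 6 too lay above the 4 sensitive clusters (283 to 452 CPM). MGP lies on chromosome 12 at 15033798 to 15038791 (GRCh37, minus strand).

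Some genes were present in resistant cells and close to absent in the sensitive library. ZNF385D, a zinc finger gene, had 1 UMI in sensitive and 2463 in resistant cells, a 1580-fold difference in CPM with a counting interval of 284 to 62600. NAV3, a microtubule-binding neuron navigator, had 3 and 2274 UMIs, a 487-fold difference (167 to 2360). BRINP3, named after its values were seen, had 15 and 4059 UMIs. For ZNF385D the 4 resistant clusters lay between 6.77 and 25.9 CPM and for NAV3 between 12.1 and 19.5 CPM. ZNF385D and NAV3, like CLCA2, were named for having at most 3 UMIs in 1 population. It follows from that choice that none of the 4 sensitive clusters was above 0.0539 CPM in either. The fold intervals do not allow for the choice. In the coculture the sensitive cells had 1.60 CPM of ZNF385D and 2.47 CPM of NAV3, against 17.1 and 22.6 CPM in resistant cells.

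NME4, a nucleoside diphosphate kinase of the mitochondrion, had 51.4 CPM in sensitive and 257 CPM in resistant cells, with 60.8 and 214 CPM in the coculture. Its level was even inside each population, at 33.6 to 58.0 CPM over the sensitive and 245 to 305 CPM over the resistant clusters. KRT81, a hair-type keratin with near-identical relatives whose reads may be split, had 22.0 and 112 CPM. It was concentrated in few cells, 4.49% of sensitive and 27.7% of resistant without thinning, and 1.79% and 11.1% with it. Without the largest cluster of each population its log2 ratio fell from 2.29 to 0.13, short of 2-fold. The trefoil peptide gene TFF3 had 94.5 and 552 CPM between the monocultures but 416 and 413 CPM in the coculture. S100P, a calcium-binding protein, had 18.7 and 90.7 CPM, with 62.2 and 83.8 CPM in the coculture. Its ratio was 2.22 and, without the largest clusters, 0.24, and sensitive cluster 12 had 146 CPM against 22.6 to 110 CPM in the 4 resistant clusters. PTGES, the synthase of prostaglandin E2, had 32.7 and 94.8 CPM, with 47.6 and 78.0 CPM there. In the plot of the 30 extreme genes the resistant cells of the coculture lay near the resistant monoculture for most genes, FABP7 and MUCL1 being exceptions. The sensitive cells of the coculture lay between the monocultures for most genes, and at or past the resistant level for MT2A, HIST1H4C, ANKRD37 and S100A1.

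**Figure D2:**
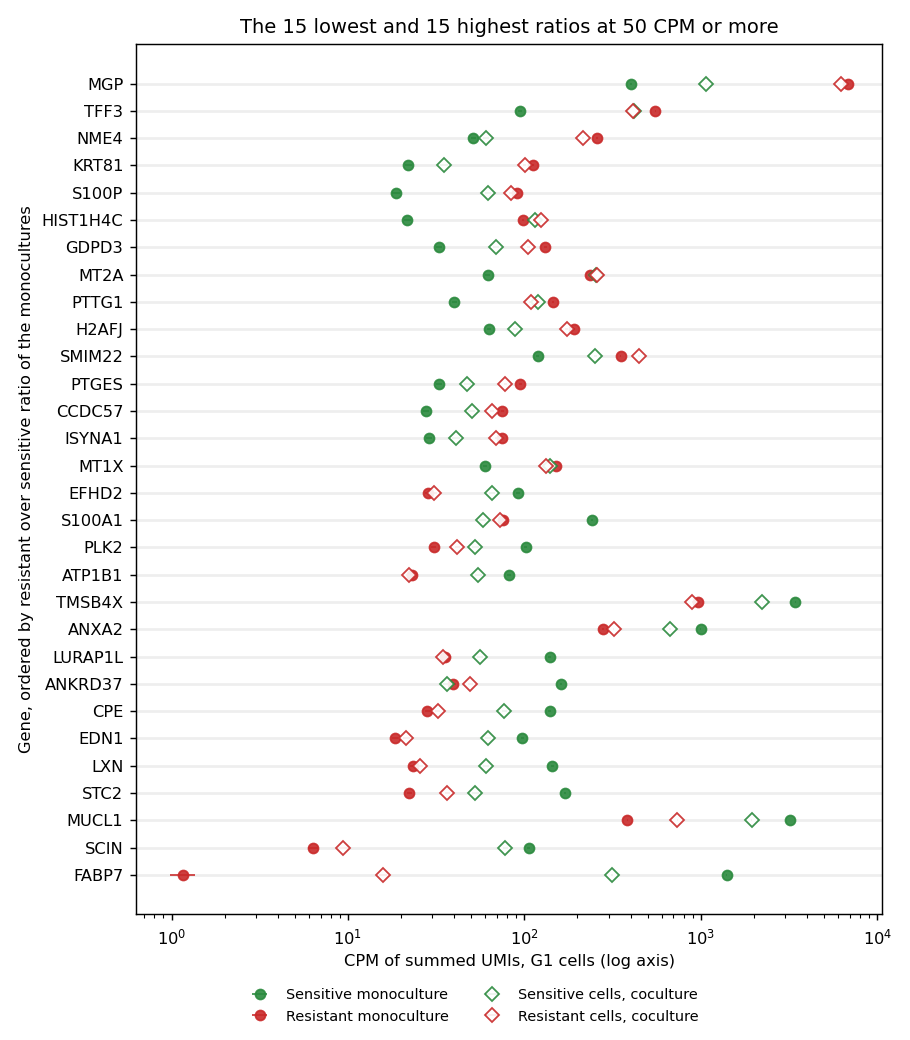
CPM (log axis) of the 15 genes with the lowest and the 15 with the highest ratios of those averaging 50 CPM or more, in the G1 cells of 4 populations. Filled circles are monocultures, open diamonds coculture cells, green sensitive and red resistant, and bars are 95% Poisson intervals. NME4 keeps the lineages apart in both settings (51.4 and 257 CPM, 60.8 and 214 CPM), whereas for TFF3 the coculture lineages coincide at 416 and 413 CPM.

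CDK4, a kinase that ribociclib inhibits, had 98.5 CPM in sensitive and 88.6 CPM in resistant cells, and CCND1 1811 and 1668 CPM. CDK6 was close to absent, with 18 and 10 UMIs. RB1 had 1672 and 1799 UMIs and a log2 ratio in CPM of -0.50. Of 25 tested cyclins, CDKs and RB and E2F genes, 1 was 2-fold higher, the S and G2 cyclin CCNA2, at 0.882 and 4.13 CPM, and none was lower, with a median of -0.08. Over all genes 1.73% were 2-fold higher and 4.28% lower. Short of 2-fold were the cyclin E gene CCNE1, with a log2 ratio of 0.74, the E2F family repressor E2F6 (-0.79) and CCNH, the cyclin partner of CDK7 (-0.69). The 7 CDK inhibitors had a median of -0.99, or -0.24 with 10 CPM added in place of 1. CDKN2A, which gives p16 and p14ARF, was lower in resistant cells at 58.8 against 25.3 CPM, and its neighbour CDKN2B, which gives p15, at 9.94 against 2.87 CPM. CDKN1A, which gives p21, had 24.7 and 10.7 CPM, while CDKN1C, which gives p57, was higher at 0.242 and 1.69 CPM. In the coculture the lower level of CDKN2A (46.7 and 24.4 CPM) and CDKN2B (5.32 and 2.34 CPM) was seen again, but CDKN1A was 14.4 CPM in sensitive and 18.6 CPM in resistant cells. Of 17 tested p53 targets 3 were 2-fold lower and none higher, against 4.28% and 1.73% of all genes. Their median was -0.44 and, in the coculture, 0.00.

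Genes of the cell cycle are given as a description, because the phase assignment used them. Of 54 G2M genes 16 were 2-fold higher and none lower in resistant G1 cells, against 1.73% and 4.28% of all genes. Their median was 0.69, or 0.25 with 10 CPM added in place of 1 and 1.025 without the largest cluster of each population. Of 41 S phase genes 3 were 2-fold higher and none lower, with a median of 0.27. MYBL2, a factor that turns on mitotic genes, had 8.15 and 34.1 CPM, and the survivin gene BIRC5 12.9 and 41.6 CPM. PTTG1, the securin that guards sister chromatids, had 40.2 and 145 CPM, and sensitive cluster 3, with 7.66% of the cells, had 247 CPM of it against 5.16 to 25.7 CPM in the other sensitive clusters. In the coculture the medians were 0.06 (G2M) and 0.05 (S), with PTTG1 at 119 and 109 CPM. In the monoculture cells with both cycle scores below -0.05, 206 genes were 2-fold higher and 513 lower, counts that do not show which genes were kept. The histone transcript HIST1H4C had 21.7 and 98.4 CPM. Among 14 tested replication-dependent histones 3 were 2-fold higher and 6 lower (1.73% and 4.28% of all genes). HIST1H4H had 79.5 and 12.7 CPM, but such transcripts mostly lack a poly(A) tail and have near-identical copies, so their counts are uncertain.

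Estrogen-responsive genes went in both directions. Of 37 tested, 3 were 2-fold higher and 5 lower (1.73% and 4.28% of all genes), and 18 lay above 0. Of all 12478 genes tested 4817 lay above 0. TFF1, a secreted trefoil peptide and classical receptor target, had 1871 and 4626 CPM, and the receptor tyrosine kinase gene RET 3.03 and 8.25 CPM. Lower in resistant cells were STC2, ELOVL2, a fatty acid elongase (35.0 and 5.08 CPM), and the microtubule protein gene MAPT (71.7 and 14.7 CPM). ESR1, the receptor itself, had 15.5 and 13.8 CPM. The progesterone receptor gene PGR had 15.2 CPM in sensitive and 23.4 CPM in resistant monoculture cells but 43.4 and 23.6 CPM in the coculture. In the coculture TFF1 had 4576 and 5580 CPM.

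Among 19 tested genes of steroid metabolism 2 were higher and 5 lower, against 1.73% and 4.28% of all genes. HSD17B1, which converts estrone to estradiol, had 22.1 CPM (21.1 to 23.1) in sensitive and 52.1 CPM (50.9 to 53.4) in resistant cells, and 15.9 and 48.6 CPM in the coculture. With cells thinned it was found in 10.1% and 18.6% of monoculture cells. Its cluster ranges overlapped, at 13.4 to 23.6 CPM in sensitive and 19.7 to 61.1 CPM in resistant cells. HSD17B8, which oxidises estradiol, had 31.0 and 46.5 CPM, short of 2-fold, and HSD17B14 1.62 and 4.41 CPM. CYP19A1, which encodes aromatase, had 0 UMIs in both monoculture populations, a limit of 0.101% and 0.0793% on the cells with a UMI but not on those that express the gene. The lower genes were STS, which frees estrone from its sulfate (19.7 and 4.91 CPM), the estrogen hydroxylases CYP1A1 (23.8 and 2.64 CPM) and CYP1B1 (77.7 and 21.6 CPM), and the glucuronosyltransferases UGT2B15 (8.39 and 0.855 CPM) and UGT2B17 (4.78 and 0.225 CPM), which are close paralogs. Of these 5, all were lower in resistant coculture cells too, STS and CYP1B1 by ratios of -0.32 and -0.27. The monoculture cluster ranges of CYP1A1 overlapped (2.85 to 91.3 and 0.485 to 4.42 CPM), while those of STS and CYP1B1 did not.

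Several signalling lists had medians below that of all genes, of which 4.28% were 2-fold lower. The FGF and RET list did not, with a median of 0.24. The ID and BMP list (13 tested, 4 lower, none higher) had a median of -0.67. ID3, which blocks basic helix-loop-helix factors, had 950 and 304 CPM, and BAMBI, a decoy receptor for BMP and TGFB ligands, 41.0 and 5.11 CPM. ID1 had 579 and 325 CPM in the monocultures but 257 and 412 CPM in the coculture. The EGFR and MAPK targets (14 tested, 2 lower) had a median of -0.58. The lower members were the ERK phosphatase gene DUSP6 (4.96 and 0.490 CPM) and PHLDA1 (3.82 and 0.878 CPM). Of the 14 genes 4 lay above 0. The summed level of the 20 listed genes was higher in resistant cells, at 3232 and 3486 CPM. EGFR itself had 1 UMI in sensitive and 0 in resistant cells. In the IGF list (14 tested, 1 lower, median -0.55) IGFBP5, a secreted IGF-binding protein, had 3683 and 1752 CPM, with 1697 and 1831 CPM in the coculture. For the ID and BMP, EGFR and MAPK, and IGF lists the coculture medians were 0.11, -0.06 and -0.04. With 10 CPM added in place of 1 their monoculture medians, in that order, were -0.24, -0.20 and -0.25.

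Metallothioneins, small cysteine-rich proteins that bind zinc and copper, had the highest list median at 1.36. Of 11 listed 4 had enough UMIs, and 3 of these were 2-fold higher in resistant monoculture cells, against 1.73% of all genes. MT2A had 61.8 and 235 CPM, MT1X 59.8 and 151 CPM, and MT1F 7.74 and 22.1 CPM. The genes are close paralogs, and reads could be split among them. In the coculture MT2A had 253 CPM in sensitive and 259 CPM in resistant cells and MT1X 140 and 132 CPM, so that for both only the sensitive monoculture was low among the 4 populations. MT1F had 11.7 and 16.7 CPM in the coculture. MT2A varied within populations as well, at 251 CPM in sensitive cluster 3 against 33.6 to 75.7 CPM in the others, and at 748 CPM in resistant cluster 5 against 108 to 454 CPM. Metal-responsive transcription factor 1 is known to bind metal response elements before these genes. The 250 bases before the start of MT2A and MT1X are shown for that reason, from RefSeq (GRCh38.p14), as MT2A at chr16:56608334-56608583 and MT1X at chr16:56682220-56682469, both plus strand. Capitals mark TGCGCNC or TGCACNC on either strand, letters that allow overlaps.
MT2A: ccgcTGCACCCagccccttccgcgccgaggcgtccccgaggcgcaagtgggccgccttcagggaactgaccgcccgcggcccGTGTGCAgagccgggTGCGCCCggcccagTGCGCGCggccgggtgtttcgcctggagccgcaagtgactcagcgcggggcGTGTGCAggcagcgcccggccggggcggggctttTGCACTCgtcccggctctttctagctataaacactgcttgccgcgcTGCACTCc
MT1X: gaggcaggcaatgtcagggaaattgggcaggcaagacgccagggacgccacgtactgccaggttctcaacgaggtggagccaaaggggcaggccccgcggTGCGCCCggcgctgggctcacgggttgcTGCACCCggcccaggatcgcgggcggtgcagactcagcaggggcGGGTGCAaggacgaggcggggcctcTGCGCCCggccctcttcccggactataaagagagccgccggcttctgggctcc
MT2A held 7 matches and MT1X 4. Of 27305 promoters of this length, 24.7% held at least 1 match and 1.56% at least 3. MTF1, the gene of that factor, was lower in resistant cells at 10.6 and 6.29 CPM.

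Of 30 tested hypoxia-inducible genes 6 were 2-fold lower in resistant cells, against 4.28% of all genes, and none higher, with a median of -0.29. They were STC2, ANKRD37, EGLN3, NDRG1, ADM and ANGPTL4. ANKRD37, an ankyrin-repeat protein induced by hypoxia-inducible factor, had 161 CPM (158 to 164) and 39.6 CPM (38.5 to 40.7), with 36.4 and 49.4 CPM in the coculture. NDRG1, a stress-response gene, had 29.7 and 10.2 CPM, and 11.8 and 11.9 CPM in the coculture, where the list median was 0.07. Oxygen in the spheroids was not measured. Without the largest cluster of each population the median of this list was -0.56. The 250 bases before the start of ANKRD37 (RefSeq, GRCh38.p14, chr4:185396591-185396840, plus strand) are shown with ACGTG or GCGTG, the core letters bound by hypoxia-inducible factor, in capitals on either strand, and 2 of the 3 matches overlap.
ANKRD37: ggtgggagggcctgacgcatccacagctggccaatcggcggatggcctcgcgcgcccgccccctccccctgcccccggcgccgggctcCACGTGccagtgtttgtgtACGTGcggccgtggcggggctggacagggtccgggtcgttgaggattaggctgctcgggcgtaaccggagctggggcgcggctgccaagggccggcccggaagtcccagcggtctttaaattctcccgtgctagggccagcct
At least 1 such core was held by 43.1% of the 27305 promoters and at least 3 by 7.89%, so a single match is common.

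The 79 cytosolic ribosomal protein genes lay together above 0, with 77 higher in resistant cells, a median of 0.58 and 1 past 2-fold. Of all 12478 genes tested 4817 were higher, and 1.73% were 2-fold higher and 4.28% lower. Their summed level was 142788 CPM in sensitive and 207748 CPM in resistant cells. RPS27 had 2658 and 5861 CPM and RPL37 1253 and 2382 CPM, while RPS6 (1817 and 1396 CPM) and RPL41 (6875 and 5582 CPM) were lower. The 13 mitochondrially encoded genes summed to 207371 and 174122 CPM, with none past 2-fold. In cells with under 15 mitochondrial percent, 336 sensitive and 1315 resistant, the ribosomal median was 0.35, and the part of the mitochondrial share in the rest was not tested. In the coculture the ribosomal sums were 190735 and 202308 CPM and the median 0.12.

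None of 21 unfolded protein response genes, 30 proteasome subunits, 62 nuclear respiratory chain genes or 29 MYC targets was past 2-fold, with medians of 0.17, 0.07, 0.07 and 0.03. Among 24 interferon-stimulated genes 1 was 2-fold higher and 1 lower (1.73% and 4.28% of all genes), with a median of 0.06. IFI27 was the higher gene, at 4.75 and 18.3 CPM, and resistant cluster 9, which holds 1.72% of the cells, had 460 CPM of it against 3.76 to 12.6 CPM in the other 3 clusters compared. In the coculture the interferon list had a median of -0.46 over 26 genes, of which 0 were 2-fold higher and 3 lower in resistant cells. Over all genes tested in the coculture these shares were 0.512% and 1.42%. In the TGFB list (14 tested) 1 gene was 2-fold higher and 4 lower between the monocultures, against 1.73% and 4.28% of all genes. TGFB1 was the higher gene, at 3.59 and 12.7 CPM. Among the lower were LTBP1 (45.4 and 13.8 CPM), which holds latent TGFB in the matrix, and THBS1 (47.1 and 17.6 CPM), which can activate it. Of 15 fatty acid genes 2 were 2-fold higher and 2 lower, again beside 1.73% and 4.28% of all genes. The desaturases SCD (20.5 and 45.6 CPM) and FADS1 (3.52 and 11.9 CPM) were higher and FABP7 and FABP5 lower. The plot of list medians gives all lists with at least 4 tested members.

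**Figure D3:**
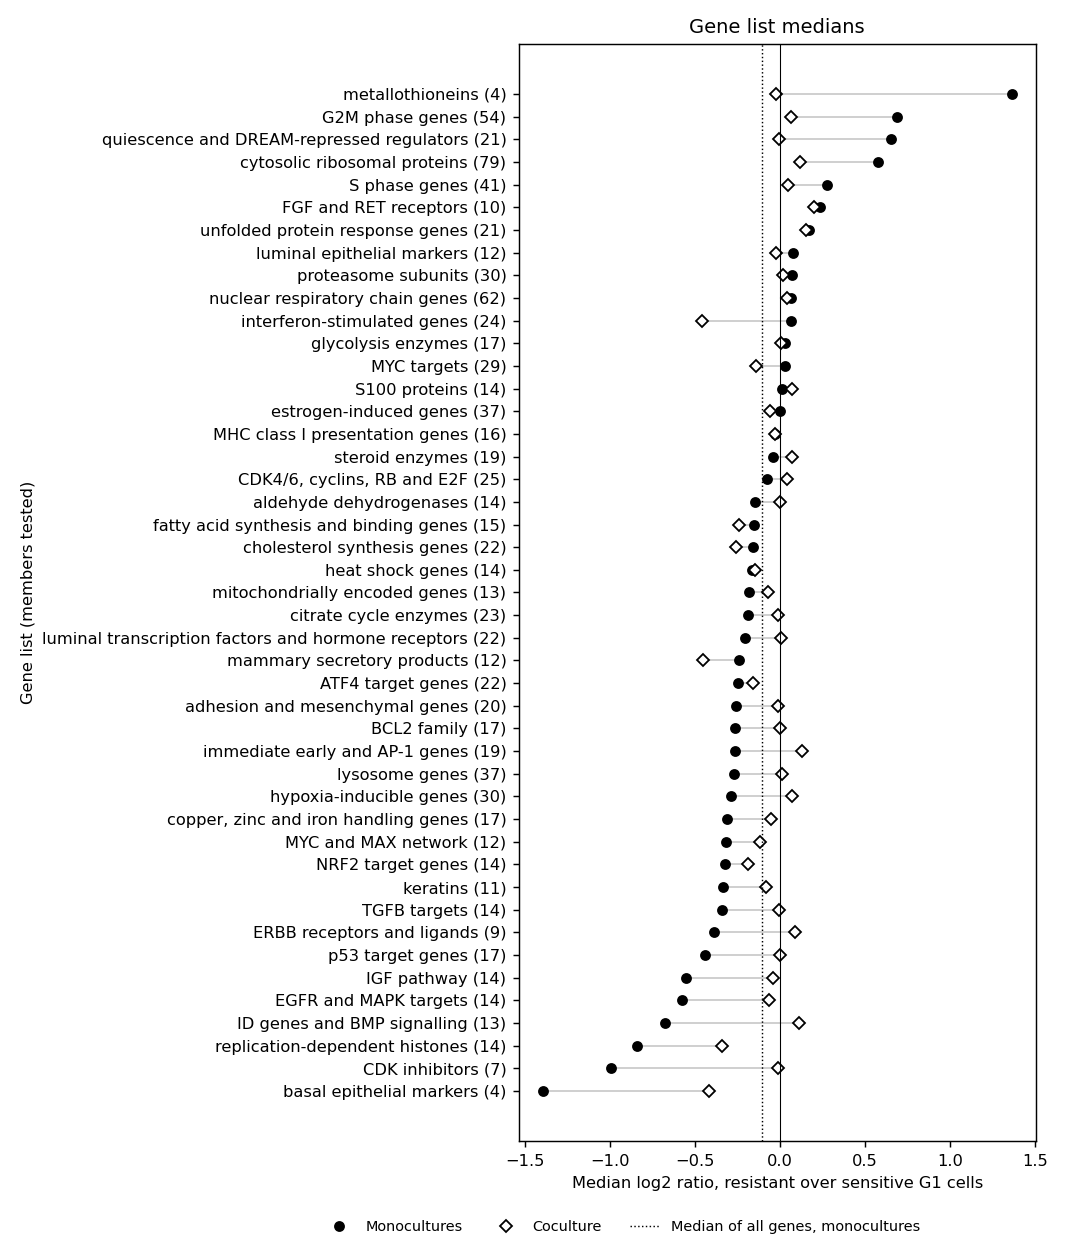
Median log2 ratio of resistant over sensitive G1 cells for each gene list with at least 4 tested members (number tested in brackets). Filled circles are the monocultures, open diamonds the lineages within the coculture, and the dotted line is the monoculture median of all genes, -0.107. Metallothioneins (1.36 and -0.02) and CDK inhibitors (-0.99 and -0.01) lie farther from 0 between the monocultures than in the coculture, while the basal list of 4 genes lies below 0 in both (-1.40 and -0.42).

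Within the coculture, where both lineages shared a spheroid pool and a library and no monoculture cell was used, 62 of 12101 genes (0.512%) were 2-fold higher and 172 (1.42%) 2-fold lower in resistant G1 cells. Of the 216 genes higher between the monocultures, 196 (90.7%) lay above 0 in the coculture and 42 (19.4%) were again 2-fold higher, with a median of 0.55 against 1.28. Of the 534 lower genes 519 had enough UMIs there, 485 (93.4%) lay below 0 and 136 (26.2%) were again 2-fold lower, with a median of -0.68 against -1.34. Over all genes 49.8% lay above 0. The differences were thus mostly in the same direction and smaller in the coculture. These genes were picked by their monoculture ratios, so some decrease elsewhere follows from the choice, and its size was not estimated. The part of RNA free in the droplets of the shared library was not tested. FABP7 (-4.23), SCGB2A2 (-4.50), SCIN (-2.94), MGP (2.54) and NME4 (1.80) were among those past 2-fold in both, and HSD17B1 was 1.20 in the monocultures and 1.55 in the coculture. DHRS2, a short-chain dehydrogenase gene named after its values were seen, was the 1 gene past 2-fold in opposite directions, at 59.5 and 28.4 CPM in the monocultures and 9.14 and 39.5 CPM in the coculture.

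**Figure D4:**
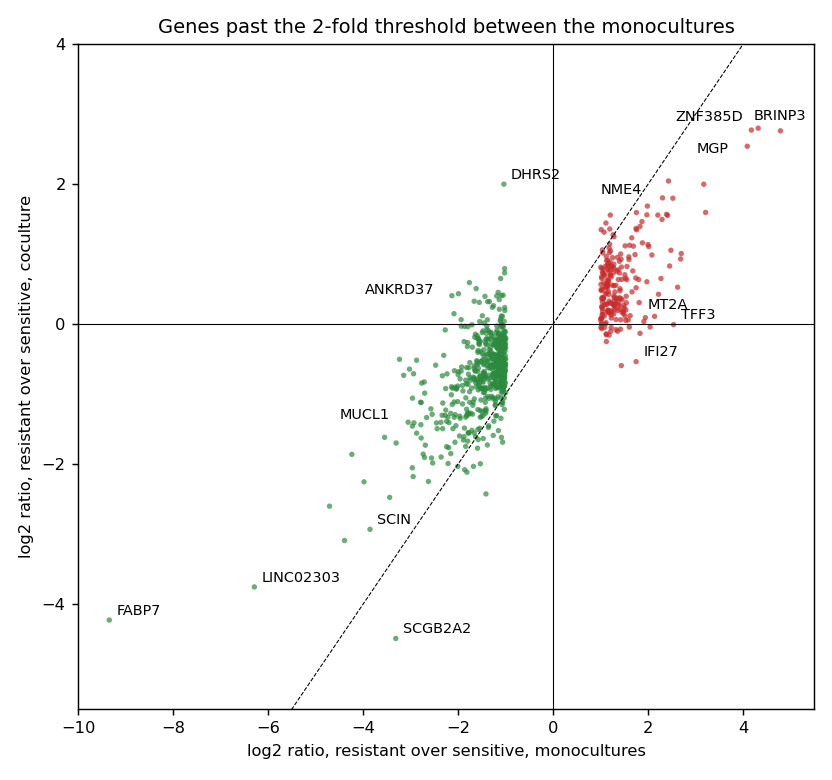
Log2 ratio of resistant over sensitive G1 cells in the monocultures (x axis) and in the coculture (y axis) for genes past 2-fold between the monocultures, green where lower and red where higher in resistant cells. The dashed line marks equal ratios. Most points lie between the x axis and that line, as for MGP (4.08 and 2.54), while TFF3 (2.53 and -0.01) lies on the axis and SCGB2A2 (-3.32 and -4.50) beyond the line.

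The monocultures occupied different deposited clusters. Of the sensitive G1 cells 62.7% were in cluster 4, 22.9% in 8, 7.66% in 3 and 5.23% in 12, and of the resistant cells 69.1% were in cluster 0, 18.0% in 5, 8.01% in 6 and 1.72% in 9. The sensitive cells of the coculture were mostly (76.3%) in cluster 3. These clusters were made from the same transcripts, so a separation between them is a description. For 154 of the 216 higher genes (71.3%) all 4 resistant clusters lay above all 4 sensitive clusters, and for 410 of the 534 lower genes (76.8%) all lay below. The same order was found for 7.52% and 18.2% of all genes tested. For most genes past 2-fold the clusters of at least 50 cells thus did not overlap between the monocultures, with exceptions such as PTTG1, MT2A, KRT81, S100P and SCGB2A2, where cluster ranges overlapped. S100A1, a calcium-binding protein with 243 and 75.8 CPM, was another exception, at 51.7 CPM in sensitive cluster 3 and 230 to 268 CPM in the other sensitive clusters, and with 57.9 and 72.8 CPM in the coculture.

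Position in the genome was not used by the selection, and ratios varied with it. The 6674 genes that averaged 10 CPM or more had a median of -0.11 in the monocultures and 0.00 in the coculture. Of these, 6100 were read in 122 windows of 50 consecutive genes (GRCh37). The last genes of a chromosome, where fewer than 50 remained, were left out of the windows. On chromosome 1, the 4 windows from SAMD11 to PPIE (859303 to 40229586) had medians between -0.60 and -0.42. The windows were chosen after their low medians were seen, so a small share of genes above the rest follows from the choice. In them 23 of 200 genes (11.5%) lay above the monoculture median of the 6674 genes, -0.11, against 48.8% over all windows. The next window, from CAP1 to TUT4 (40505905 to 53019159), had -0.10 and 25 of 50 genes above that median. The same 4 windows had medians of -0.43 to -0.33 in the coculture, and the next window 0.05. The step between neighbouring windows therefore stood at the same place in both comparisons, which share no cell.

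The first window of chromosome 2 (SH3YL1 to NRBP1, 217730 to 27665126) had -0.56 in the monocultures and -0.41 in the coculture, and the window after it -0.18 and -0.02. In the first window 4 of 50 genes lay above the monoculture median of all these genes, -0.11, which likewise follows from the choice of a low window. On chromosome 12, 5 windows from SINHCAF to COQ5 (31433518 to 120972237) lay between -0.43 and -0.25, and between -0.27 and -0.17 in the coculture, whereas the window before them had -0.17 and -0.05. The window of chromosome 21 (HSPA13 to CSTB) had -0.44 and -0.24, and the 3 windows of chromosome 22 lay between -0.36 and -0.29, and between -0.24 and -0.18. These 14 windows were chosen after their values were seen, and the other 108 windows had coculture medians between -0.15 and 0.14. In the monocultures the other windows overlapped the chosen ones, the lowest being MPHOSPH8 to ITM2B on chromosome 13 (-0.45, and -0.15 in the coculture) and FAM120A to MRRF on chromosome 9 (-0.42 and -0.12). The window that starts at RB1 had -0.25 and -0.02. In the chromosome 1 region 13 of 200 genes (6.5%) were 2-fold lower and in that of chromosome 2 6 of 50 (12.0%), against 3.82% over all windows. Those of chromosomes 12, 21 and 22 had 6.4%, 12.0% and 4.0%. A window not chosen, CBWD1 to TESK1 on chromosome 9, had 11 of 50, so such genes were not confined to the chosen regions. Most genes of the chromosome 1 and 2 regions lay below the rest without passing 2-fold. ENO1 (416 and 203 CPM), a glycolytic enzyme, and EFHD2 (91.7 and 28.3 CPM) lie in the chromosome 1 region, and ENO1 was 355 and 208 CPM in the coculture. Gene copy number was not measured here.

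**Figure D5:**
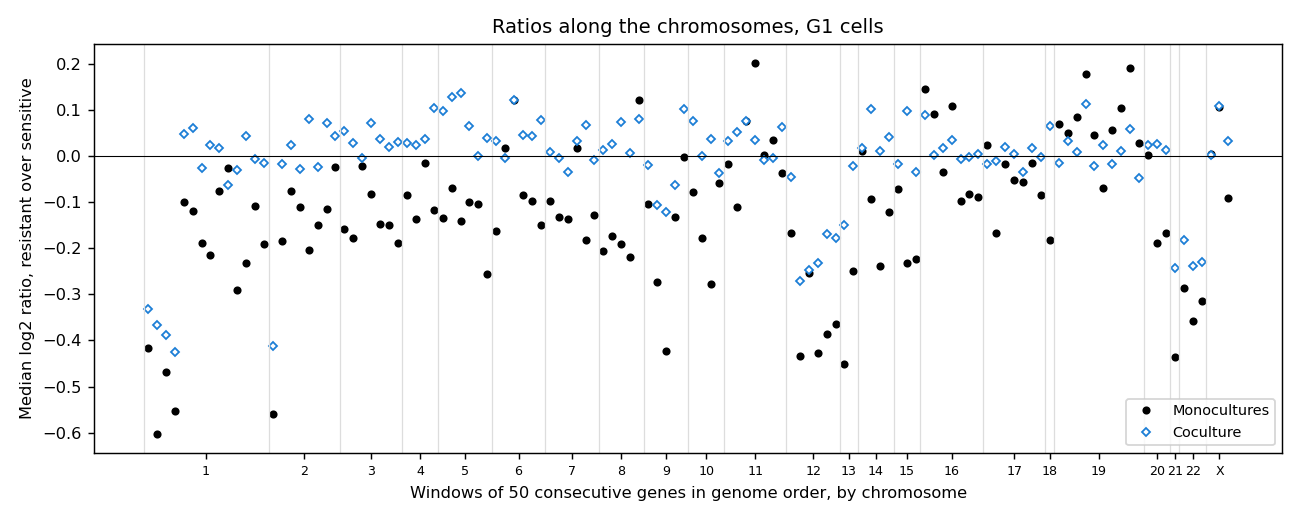
Median log2 ratio of resistant over sensitive G1 cells in 122 windows of 50 consecutive genes that averaged 10 CPM or more, in genome order by chromosome. Filled circles are the monocultures and open diamonds the coculture. The start of chromosome 1 (down to -0.60 and -0.43), the start of chromosome 2 (-0.56 and -0.41), most of chromosome 12 and chromosomes 21 and 22 lie below the rest in the coculture. In the monocultures other windows overlap them, the lowest being on chromosomes 13 (-0.45) and 9 (-0.42).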

How the data were processed

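Spheroids of CAMA-1 cells (sensitive, resistant and mixed) were measured by droplet single-cell RNA sequencing in 3 libraries. Per the labels the authors counted UMIs with Cell Ranger 3.0.2 on GRCh37, and the deposited values are raw counts per gene and barcode. The deposited annotation gives each kept cell its UMI and gene counts, its mitochondrial percent, its S and G2M score, its phase, its cluster and its group, all computed by the authors. The annotation also has 9 columns left unused here. The authors had taken out doublets called by scrublet at a threshold of 0.25 (study's methods). Here scrublet was run on the annotated cells, and leaving out those scored above 0.25 was an alternative.

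UMIs were summed over the G1 cells of each population with Python 3.11.15 and scipy 1.17.1, without rows that have no gene symbol (0.523 to 0.591% of UMIs), and given as CPM. Ratios were taken on a log2 scale after adding 1 CPM, for genes that reached 50 UMIs in both populations together, and understate the change of low genes. A gene counted as different at 2-fold. edgeR 4.0.16 (R 4.3.3) gave the TMM factors, used as a scaling only. Shares of cells with a molecule were given without thinning or, where stated, after thinning to 5000 UMIs. Clopper-Pearson limits were computed for the thinned shares. A count of 0 was given a limit of 3 counts. Promoters and motif shares were read from RefSeq tables (GRCh38.p14), which gave no entry for MT1F, and gene positions from a GRCh37 annotation, in which 2 genes were not placed.

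Genes were named by rule: the 15 highest and 15 lowest ratios that average 50 CPM or more, up to 3 genes per list with the largest ratio that average 5 CPM or more, genes the study names here, and genes at 5 CPM or more in 1 population with at most 3 UMIs in the other. Some other list members past 2-fold were named after their values were seen. The 48 gene lists and the members were chosen with earlier results of these data known, and support nothing by themselves.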

Additional observations from a re-analysis of the deposited data

Results flagged for a closer look

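Among the genes named by rule, 7 had ratios of opposite sign in the monocultures and in the coculture, each at least 0.3 from 0 on the log2 scale. Genes named after their values were seen, such as DHRS2, are not in this count. The difference between the settings was not tested, since each population is 1 library or part of 1. Lower in resistant monoculture cells but higher in resistant coculture cells were ANKRD37 (161 and 39.6 CPM in the monocultures, and a ratio of 0.43 in the coculture), S100A1 (-1.66 and 0.32), ALDH3B2, an aldehyde dehydrogenase (-1.34 and 0.32), CDKN1A (-1.14 and 0.35) and ID1 (-0.83 and 0.68). Higher in resistant monoculture cells but lower in resistant coculture cells were IFI27 (1.75 and -0.54) and PGR (0.59 and -0.85). In ALDH3B2 the sensitive level was 67.1 CPM in the monoculture and 24.6 CPM in the coculture, while the resistant level was 25.8 and 30.9 CPM.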

How the results depend on the processing

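The ratios were recomputed under 15 alternatives, 14 planned and 1, the subtraction of the median of all genes, added after seeing the data. A pseudocount of 0.1 gave 487 higher and 908 lower genes and a pseudocount of 10 gave 44 and 129; the other alternatives stayed within 1.5 times of 216 and 534. Subtracting the median gave 273 higher and 411 lower genes, 39.9% of the calls higher. The share of lower genes also lower in the coculture was 88.59% in cells under 15 mitochondrial percent and 98.87% without the largest clusters, and that of higher genes also higher was 86.78% in cells with 2 or more transgene UMIs and 95.99% without the largest clusters. All 30 genes with the extreme ratios kept their sign, and 445 of their 450 values were past 2-fold. The others were KRT81 (0.94), MT1X (0.91) and PTTG1 (0.98) in cells under 15 mitochondrial percent, and KRT81 (0.13) and S100P (0.24) without the largest clusters. Of 45 list medians 30 kept their sign under all alternatives, and among those described the estrogen, steroid, MYC target, proteasome, respiratory chain, interferon, mitochondrially encoded, fatty acid, luminal and CDK and cyclin medians, all close to 0, did not. With a pseudocount of 10 the medians of the CDK inhibitors (-0.24), the EGFR and MAPK (-0.20), the ID and BMP (-0.24) and the IGF list (-0.25) were nearer 0 than in the main analysis. No paired analysis was possible because each condition has 1 library, and for the same reason no library could be left out. Depth limits the genes near 1 CPM, where ratios follow the pseudocount.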
